A study of Bos taurus with 27 samples.

Results

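The transcripts described here are those of 8 genes of the major histocompatibility complex (MHC) class I pathway, taken by symbol from a table of read counts for 32637 genes in bovine blastocysts. They are BOLA, BOLA-NC1 and JSP.1, which encode class I heavy chains, B2M, TAP1, TAP2, TAPBP and NLRC5. All 8 symbols were found in the table, and all 8 were among the 12310 genes retained because they reached 1 CPM, the count scaled to a pool total of 1000000, in at least 12 pools.

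The study asked whether the maturity of the preovulatory follicle, greater or lesser, that gave the follicular fluid added while bovine oocytes matured in vitro leaves a trace in the transcriptome of the embryos. Oocytes came from abattoir ovaries of cattle of several breeds and were fertilized with semen of the same bull, and the embryos were cultured without further treatment to day 8. Each of the 27 libraries was made from RNA of 2 expanding or expanded blastocysts of the best quality grade, and the labels do not place a library in a follicular fluid treatment or a fertilization replicate. No comparison between treatments was therefore made, and each pool is called by the number in its label.

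Class I molecules sit on the surface of almost all nucleated cells and show short peptides from inside the cell to cytotoxic T cells and natural killer cells. Peptides cut by the proteasome are pumped into the endoplasmic reticulum by the TAP transporter and loaded there on a heavy chain paired with beta-2-microglobulin. In the embryo this pathway has drawn interest because trophoblast cells, which carry paternal as well as maternal class I genes, lie against the mother's immune cells later in pregnancy, and trophoblast keeps class I expression low or changes which class I genes it uses.

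The total count per pool was between 10517606 and 44253564 with a median of 22293594, so that 1 CPM stood for 10.5 to 44.3 counts. Markers of trophectoderm, the outer layer of the blastocyst, summed to between 15560 and 38770 CPM, those of epiblast to between 312 and 1302 CPM and those of hypoblast to between 344 and 1521 CPM. All 8 trophectoderm and all 7 epiblast markers were retained, and 4 of 7 hypoblast markers, with SOX17 and FOXA2 at a median of 0. Markers of cumulus and granulosa cells summed to 3.78 to 34.9 CPM, with LHCGR and FOXL2 at a median of 0. Markers of leukocytes summed to 10.3 to 94.6 CPM, highest in pool 9, and 7 of the 13 had a median below 1 CPM. These are bulk libraries, in which fewer cells of a type and less RNA per cell cannot be told apart.

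BOLA, a class I heavy chain gene at chr23:28720499-28724294 of the ARS-UCD2.0 assembly, was measured at 17.5 CPM in the lowest pool, at a median of 34.2 and at 90 CPM in pool 9. Pools 14, 26, 31 and 46 lay together at 17.5 to 18.2 CPM, and the other 23 pools began at 28.4 CPM. BOLA thus had 4 pools set below the rest and 1 pool, number 9, above the next highest at 68.8 CPM. JSP.1, another class I heavy chain gene at chr23:28663711-28667352, had 12.4 CPM in pool 21, a median of 26.9 and 52 CPM in pool 44. Its pools were spread more evenly, and its widest gap between neighbouring pools was 0.24 on the log2(CPM + 1) scale, against 0.61 for BOLA, where a gap had to leave at least 4 pools on each side. BOLA-NC1, a non-classical class I gene at chr23:28547672-28552334, was measured at 0.951 to 7.23 CPM with a median of 3.04 and reached 1 CPM in 26 pools. The sections of the class I genes that are near-identical and the variation of class I genes between cattle mean that reads of one gene can be counted on another or left uncounted, so each of these 3 values is uncertain to that extent.

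The heavy chains did not keep a fixed ratio to each other. The log2 ratio of BOLA to JSP.1 was between -1.57 in pool 31 and 1.86 in pool 32, with a median of 0.46. Pool 31 had 17.5 CPM of BOLA and 51.9 CPM of JSP.1, and pool 32 had 57.9 CPM of BOLA and 15.9 CPM of JSP.1. The pools at the ends of this ratio were thus opposite in both genes. The summed CPM of the 3 heavy chain genes was between 37.3 in pool 14 and 129 in pool 9.

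B2M encodes beta-2-microglobulin, the small invariant chain that every class I heavy chain needs to reach the cell surface, and lies at chr10:103095506-103103791. It had 327 CPM in pool 23, a median of 551 and 1779 CPM in pool 36. Pools 22, 35, 36 and 44 lay between 1310 and 1779 CPM, and the other 23 pools did not exceed 902 CPM. None of these 4 pools was among the 4 lowest or the 4 highest in BOLA.

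TAP1 and TAP2 encode the subunits of the peptide transporter and lie close together at chr23:7177596-7186308 and chr23:7138820-7146579. TAP1 was measured at 15.4 CPM in pool 24, at a median of 31.2 and at 66.4 CPM in pool 33. TAP2 had 2.96 CPM in pool 25, a median of 10.2 and 17.9 CPM in pool 13. The TAP2 values formed separate clusters of 9 and 18 pools, with no pool between 5.31 and 8.21 CPM. TAPBP, at chr23:7473471-7483390, encodes tapasin, which bridges the transporter and the empty heavy chain, and had 1.01 CPM in pool 31, a median of 6.91 and 13.7 CPM in pool 12. Pool 31 was thus lowest in both TAPBP and BOLA while it was second highest in JSP.1.

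NLRC5, at chr18:25009893-25103235, encodes the transactivator that drives transcription of class I genes and of several genes that serve them. It had 0.228 CPM in pool 31, a median of 1.29 and 4.72 CPM in pool 5, and it was under 1 CPM in 12 pools. These values rest on 5 to 113 counts, so the lowest of them carry a large counting error.

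**Figure D1:**
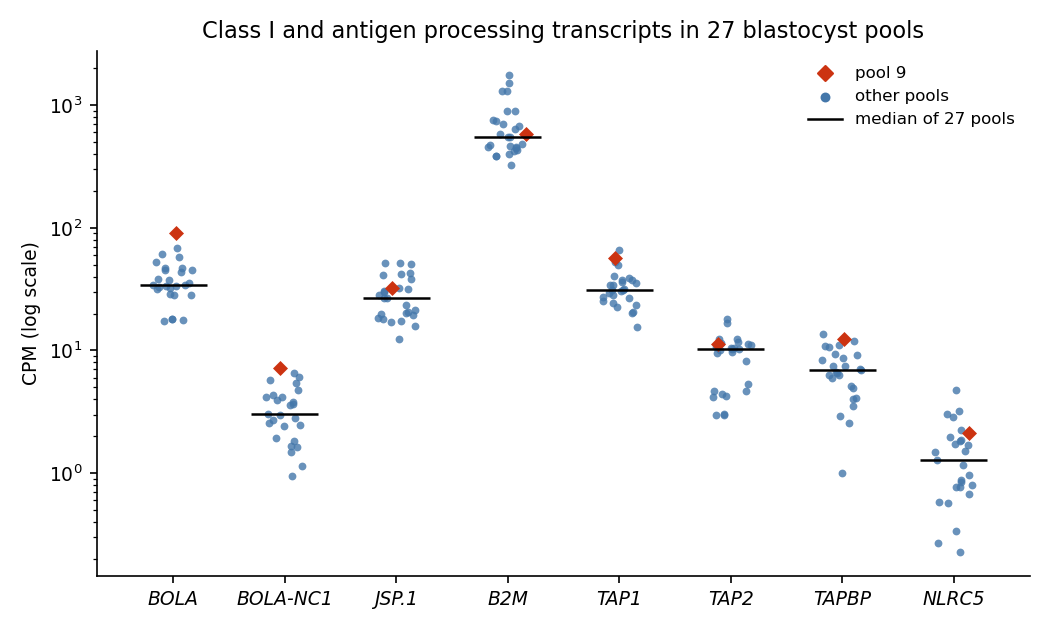
CPM on a log scale for each of the 8 genes in the 27 pools, with a point per pool, a diamond for pool 9 and a line at the median. BOLA shows 4 pools near 18 CPM below the rest, B2M 4 pools at 1310 CPM or more, and TAP2 no pool between 5.31 and 8.21 CPM.

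The spread of the genes over pools was set beside that of all retained genes. The ratio of the upper to the lower quartile was 1.53 for BOLA, 1.97 for BOLA-NC1, 1.81 for JSP.1, 1.65 for B2M, 1.46 for TAP1, 2.42 for TAP2, 1.85 for TAPBP and 2.46 for NLRC5, against a median of 1.51 over retained genes. TAP1 was thus the member with the smallest spread by this measure and was below the median of retained genes, while TAP2 and NLRC5 had the largest.

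Whether the heavy chains varied together was examined with Spearman correlations over the 27 pools, two-sided, with 100000 permutations of the pools and Benjamini-Hochberg adjustment over all retained genes tested against the same gene. A relation is called at an adjusted p of 0.05 or less. Of the 56 relations of a member in the table of another member, which come from 28 pairs, 1 was called. In the table of BOLA, 88 of 12309 genes were called, or 0.715%, and among them BOLA-NC1 was the only other member. BOLA-NC1 had rho = 0.74 with BOLA (permutation p = 3e-05, adjusted p = 0.00839) and Pearson r = 0.74 on the log2(CPM + 1) scale (permutation p = 2e-05, adjusted p = 0.00385). In the table of BOLA-NC1 itself, BOLA had the highest rho of all genes, with an adjusted p of 0.123, which is the smallest that 100000 permutations allow for a single gene, and 0.234 with 2000000 permutations.

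The pair was weaker in fewer pools. Without the 4 pools lowest in BOLA, rho was 0.62 over 23 pools (permutation p = 0.0021, adjusted p = 0.311), and without pools 9 and 25, the farthest from the BOLA median, rho was 0.70 (adjusted p = 0.0603). Without pool 9 alone, rho was 0.71 and the adjusted p was 0.0229. The sign stayed positive in each of these sets, and the call held only in the last.

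BOLA and JSP.1 showed rho = -0.02 (permutation p = 0.924, adjusted p = 0.993) and r = 0.06 (permutation p = 0.772, adjusted p = 0.922), and BOLA-NC1 and JSP.1 rho = 0.05 (permutation p = 0.799, adjusted p = 0.972). In 23 pools, without the 4 lowest in BOLA, BOLA and JSP.1 had rho = -0.08 (permutation p = 0.735, adjusted p = 1). BOLA and B2M had rho = 0.44 (permutation p = 0.0239, adjusted p = 0.55), which was 0.19 without the 4 pools lowest in BOLA (permutation p = 0.388, adjusted p = 1). In other sets it did not weaken. Without pools 9 and 25 rho was 0.57 (permutation p = 0.00359, adjusted p = 0.25). Without the 4 pools highest in B2M it was 0.48 (permutation p = 0.0214, adjusted p = 0.451 in the table of B2M). None of these relations was called, over 27 pools or fewer.

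**Figure D2:**
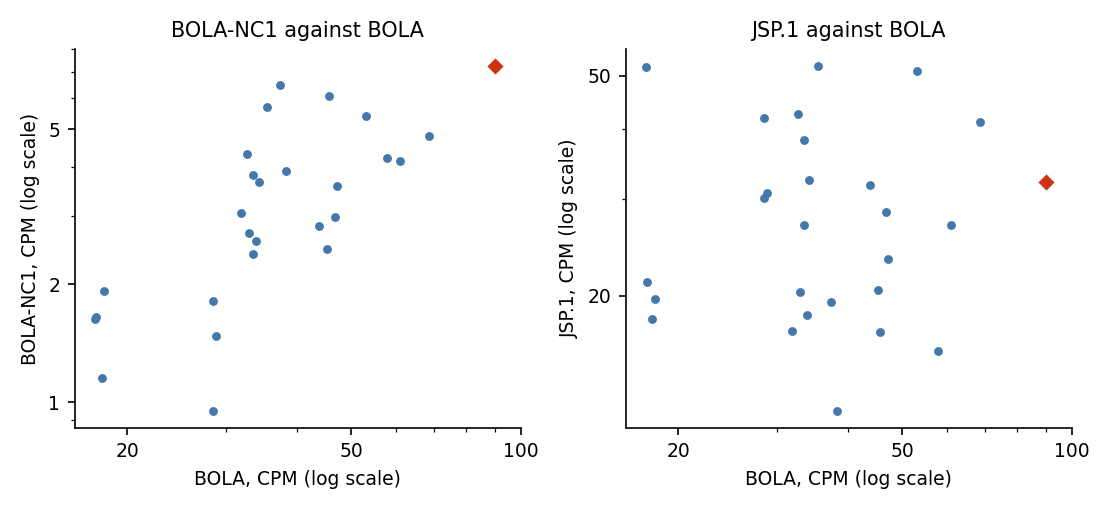
CPM of BOLA-NC1 (left) and JSP.1 (right) against CPM of BOLA on log scales, with a point per pool and a diamond for pool 9. BOLA-NC1 was higher where BOLA was higher (rho = 0.74), JSP.1 was not (rho = -0.02), and the 4 pools near 18 CPM of BOLA had 18.2 to 51.9 CPM of JSP.1.

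The 3 genes whose pattern was most like that of BOLA, by rho over the 27 pools, were LOC524810, which RefSeq lists under immunoglobulin heavy chain synonyms, LYZ, the lysozyme gene, and LCP1, an actin-bundling protein of leukocytes. LOC524810 was measured at 2.15 to 18.8 CPM and had rho = 0.85 and r = 0.89 with BOLA. LYZ was measured at 0.847 to 8.27 CPM and had rho = 0.83 and r = 0.86. LCP1 was measured at 0.748 to 7.65 CPM and had rho = 0.83 and r = 0.82. Each of the 3 had a permutation p of 1e-05, the smallest possible with this number, and an adjusted p of 0.00397, and each was called without pools 9 and 25 as well, with an adjusted p of 0.0274.

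The 4 pools lowest in BOLA had 0.847 to 1.82 CPM of LYZ, against a median of 2.63 CPM over all pools. They had 2.15 to 3.95 CPM of LOC524810, against a median of 6.59. For LCP1 they had 0.748 to 3.63 CPM, where pool 14 was at the median of 3.63. In the 23 other pools rho was 0.76 for LOC524810 (adjusted p = 0.0879), 0.74 for LYZ (adjusted p = 0.0821) and 0.82 for LCP1 (adjusted p = 0.0821). In that set the test by ranks called 0 of 12309 genes, with 544 at p ≤ 0.05 before adjustment, while the Pearson test called 53 (0.431%), among them these 3 genes at an adjusted p of 0.00769 each. All of the 88 genes called over the 27 pools had the same sign there. The 23 pools are part of the 27 in which these genes were picked, so the shared sign is no separate support. No call by rank was made without the 4 low pools.

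Of the 13 leukocyte markers, 6 were retained and all 6 had a positive rho with BOLA, with a median of 0.73 against 0.04 over all genes tested. PTPRC, the pan-leukocyte antigen CD45, CORO1A, TYROBP and CD53 were called, so 4 of 6 were called higher with BOLA, against 0.691% of all genes tested. With TMM library sizes 3 of 6 were called. CD53 was the one lost, and it had an adjusted p of 0.0656 without pool 9 and 0.148 without pools 9 and 25. PTPRC itself was measured at 1.01 CPM in pool 31, a median of 2.83 and 6.75 CPM in pool 9, with rho = 0.82 to BOLA (adjusted p = 0.00397) over all pools and 0.71 (adjusted p = 0.104) in the 23 pools. All 4 were called by the Pearson test in the 23 pools, with an adjusted p of 0.00769 for PTPRC and CORO1A, 0.00985 for TYROBP and 0.0393 for CD53. Other called genes, named here after their values were seen, were HBB, a haemoglobin chain (rho = 0.76), S100A8 (rho = 0.72) and S100A9 (rho = 0.74), which neutrophils and monocytes make in quantity, CSF3R, the neutrophil growth factor receptor (rho = 0.76), PF4, a platelet chemokine (rho = 0.82), and JCHAIN, the joining chain of secreted immunoglobulins (rho = 0.71). Of these, CSF3R (adjusted p = 0.0566) and JCHAIN (adjusted p = 0.12) were not called without pools 9 and 25. The 3 genes called lower with BOLA, 0.0244% of those tested, were DDT, LOC132345161 and NUP214, and DDT (adjusted p = 0.0885) and NUP214 (adjusted p = 0.129) were not called without pool 9. Of the embryo lineage markers 0 were called against BOLA, with 0.715% of all genes called. A positive rho was found for 2 of 8 trophectoderm (median -0.26), 3 of 7 epiblast (median -0.01) and 0 of 4 retained hypoblast markers (median -0.14). CDX2 (rho = -0.42) and GATA3 (rho = -0.45), of trophectoderm, had p ≤ 0.05 before adjustment.

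The summed CPM of the 13 leukocyte markers gave rho = 0.76 with BOLA (adjusted p = 0.00315) and r = 0.79 (adjusted p = 0.00262). It gave rho = 0.41 with BOLA-NC1 (adjusted p = 0.36), 0.55 with TAPBP (adjusted p = 0.167) and 0.08 with JSP.1 (adjusted p = 0.886). In the table of this sum 99 of 12304 genes were called, or 0.805%, and BOLA was the only member among them. Without pools 9 and 31, the farthest from the median of the sum, rho with BOLA was 0.70 (adjusted p = 0.0434), and without the 4 pools lowest in BOLA it was 0.70 (adjusted p = 0.0835) with r = 0.77 (adjusted p = 0.0194). TAPBP was called by the Pearson test (r = 0.67, adjusted p = 0.0155), which called 3.9% of the genes tested, and not by ranks. The difference between BOLA and JSP.1 in their relation to these markers was not tested, and neither was the part of leukocyte RNA in the BOLA values.

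**Figure D3:**
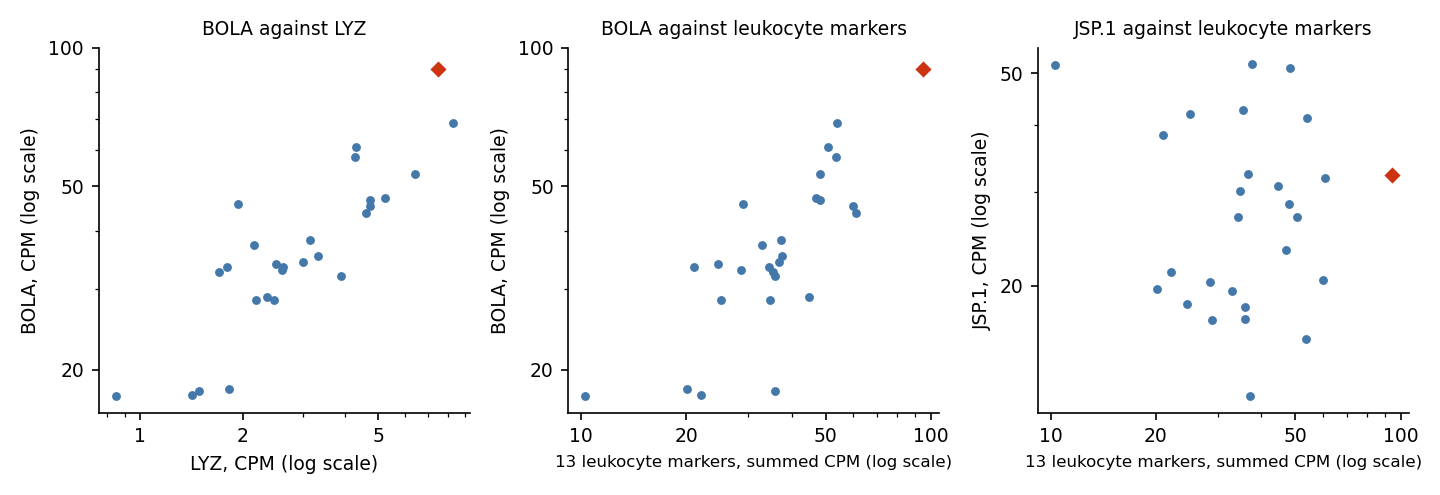
CPM of BOLA against LYZ (left) and against the summed CPM of 13 leukocyte markers (middle), and CPM of JSP.1 against the same sum (right), all on log scales with a point per pool and a diamond for pool 9. BOLA was higher where the markers were higher (rho = 0.83 and 0.76), and JSP.1 showed rho = 0.08.

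MHC class II genes, which professional antigen-presenting cells use to show peptides to helper T cells, were examined as a neighbouring pathway. Of the 15 listed, 14 were in the table, DSB had no count in any pool and 6 were retained. All 6 had a positive rho with BOLA (median 0.59), and 2 were called, against 0.691% of all genes tested called higher with BOLA. BOLA-DRA, the class II DR alpha chain, was measured at 2.67 to 19.7 CPM with a median of 5.47 and had rho = 0.72 with BOLA (adjusted p = 0.0157), which was 0.65 without pools 9 and 25 (adjusted p = 0.108) and 0.67 without the 4 pools lowest in BOLA (adjusted p = 0.185). BLA-DQB had rho = 0.68 (adjusted p = 0.0396), which was 0.64 without pool 9 (adjusted p = 0.092) and 0.59 without pools 9 and 25 (adjusted p = 0.201).

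The machinery that cuts and loads peptides was examined as a list. Of its 20 genes, 18 were retained, 12 had a positive rho with BOLA, with a median of 0.18 against 0.04 over all genes tested, and 0 were called, with 3 at p ≤ 0.05 before adjustment. With 0.715% of all genes called, 0 of 18 is near the background. The 3 were LNPEP, a peptide-trimming aminopeptidase (rho = 0.51, adjusted p = 0.338), B2M, and PDIA3, the disulphide isomerase of the loading complex (rho = -0.44, adjusted p = 0.524). PSMB9 and PSMB10, catalytic subunits of the immunoproteasome, were measured at 13.8 to 51.1 CPM and 1.17 to 12.6 CPM. PSMB8, the remaining catalytic subunit, had a median of 0.707 CPM and was not retained, like ERAP2, a trimming peptidase, at 0.693 CPM. The highest median of the list was 1098 CPM for HSPA5, a general chaperone of the endoplasmic reticulum. With effective library sizes by TMM the number called was also 0.

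Of the 24 listed regulators of class I genes, 22 were retained, 18 had a positive rho with BOLA, with a median of 0.24, and 0 were called. Of these, 5 had p ≤ 0.05 before adjustment, among them CIITA, the class II transactivator, at rho = 0.47 (permutation p = 0.0152, adjusted p = 0.468). CIITA was measured at 0.163 to 3.92 CPM. NLRC5 had rho = 0.47 with BOLA-NC1 (permutation p = 0.0156, adjusted p = 0.464), 0.38 with BOLA (permutation p = 0.0516, adjusted p = 0.558) and 0.13 with JSP.1 (permutation p = 0.53, adjusted p = 0.902). In the table of NLRC5 0 genes were called, and 1104 had p ≤ 0.05 before adjustment. A relation of the transactivator to its known targets was thus not shown in these pools, at counts of NLRC5 that were low. Of the 7 listed class I-like genes, FCGRT and PROCR were retained and neither was called against BOLA.

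The gene most like B2M was its neighbour LOC783680, which lies 12683 bases away at chr10:103116475-103122698. LOC783680 was measured at 111 CPM in pool 31, a median of 285 and 749 CPM in pool 44. It had rho = 0.85 and r = 0.87 with B2M (permutation p = 1e-05 and adjusted p = 0.123 in both), and with 2000000 permutations the adjusted p of rho was 0.00615, which made it the only gene called against B2M (0.00812% of those tested). The ratio of B2M to LOC783680 was between 1.18 and 3.47 with a median of 1.94. What LOC783680 encodes, and whether its reads can be counted on B2M or the reverse, was not examined. Without the 4 pools highest in B2M, rho was 0.76 (permutation p = 6e-05, adjusted p = 0.215) and r was 0.71 (adjusted p = 0.209) with 100000 permutations, and this set was not run with more. The next genes were NINJ2 (rho = 0.72, adjusted p = 0.185) and PAPOLB (rho = 0.68, adjusted p = 0.508). With 100000 permutations 0 genes were called against B2M by either test, and 753 had p ≤ 0.05 by ranks before adjustment.

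**Figure D4:**
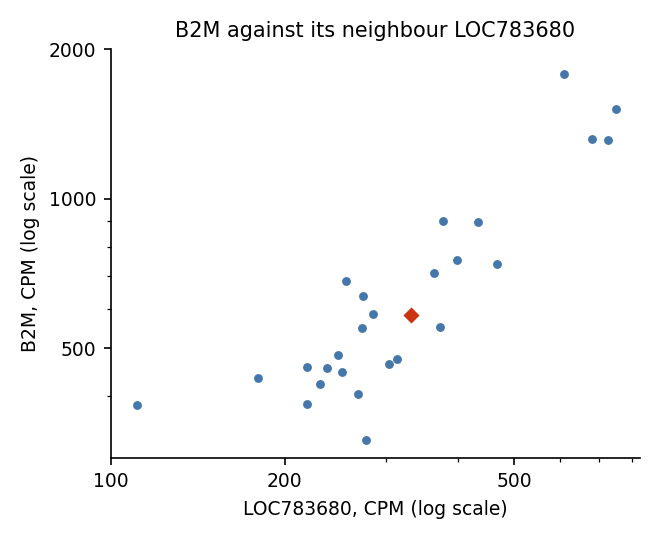
CPM of B2M against CPM of LOC783680 on log scales, with a point per pool and a diamond for pool 9. The 4 pools with 1310 CPM or more of B2M were also the 4 highest in LOC783680, and B2M was higher where LOC783680 was higher in the rest (rho = 0.76 over 23 pools).

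For JSP.1, BOLA-NC1, TAP1, NLRC5 and TAPBP the test by ranks called 0 genes, and the 3 highest are given as descriptions. They were FAM25A (rho = 0.63), CTIF (0.60) and ZFHX3 (0.59) for JSP.1, with 588 genes at p ≤ 0.05 before adjustment and 0 called by the Pearson test. BOLA-NC1 was followed after BOLA by CPSF6 (0.70) and YIPF1 (0.69), with 946 genes at that p and 0 called by the Pearson test. TAP1 had SKAP2 (0.70), FAM83B (0.69) and CASD1 (0.68), with 798 genes at that p and 0 by the Pearson test. NLRC5 had ERP44 (0.67), CYP3A74 (0.65) and PRKAB2 (0.64), with 0 by the Pearson test. TAPBP had IRF3, an interferon regulatory factor (0.71), ANKS6 (0.71) and HRH1 (0.70), with 1336 genes at that p, and here the Pearson test called 144 genes. The number of genes that went with TAPBP thus depended on the kind of correlation.

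Against TAP2, 74 of 12309 genes (0.601%) were called by ranks over all 27 pools and 236 by the Pearson test, and no member was among the 74. The number called by ranks was 0 without pool 9, with TMM library sizes and with DESeq2 size factors. Since the TAP2 values formed separate clusters, correlations are given within them. In the 18 pools above the gap, which were chosen by TAP2 itself and so cover a narrower range of it, 0 genes were called by either test, with 678 at p ≤ 0.05 by ranks before adjustment. TAP1, the partner subunit, was positively related to TAP2 over all 27 pools without being called (permutation p = 0.015, adjusted p = 0.207). It had rho = 0.23 with TAP2 in these 18 pools (permutation p = 0.362, adjusted p = 0.967), r = 0.43 (permutation p = 0.0768, adjusted p = 0.997), and rho = -0.13 in the 9 pools below the gap (exact permutation p = 0.744). TAP1 was measured at 15.4 to 52.7 CPM with a median of 25.4 in the 9 pools and at 22.8 to 66.4 CPM with a median of 34.6 in the 18.

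**Figure D5:**
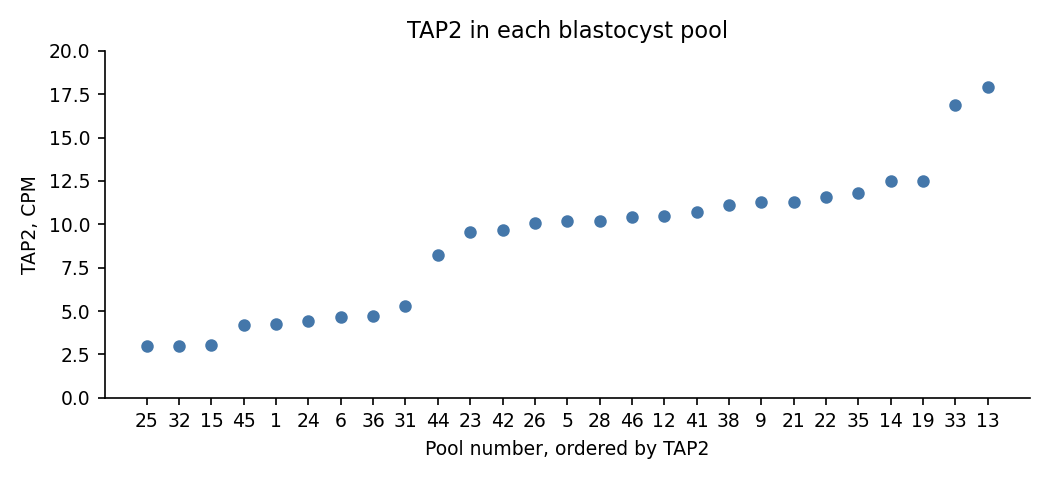
CPM of TAP2 in each pool, on a linear scale from 0, with pools ordered by their value and named by number. The first 9 pools lie at 2.96 to 5.31 CPM and the other 18 at 8.21 to 17.9 CPM.

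Interferons raise class I genes in many cell types, and interferon tau, the signal by which the ruminant trophectoderm makes pregnancy known to the mother, is the interferon of these embryos. The summed CPM of IFNT2 and IFNT3 was 7.09 in the lowest pool, 40.8 at the median, 264 in pool 14 and 589 in pool 9. It gave 190 called genes of 12309, or 1.54%, and 0 of the 8 members among them. The rank correlation was 0.14 for BOLA, -0.08 for BOLA-NC1, -0.05 for JSP.1, -0.17 for B2M, 0.17 for TAP1, 0.21 for TAPBP and 0.16 for NLRC5. TAP2 was the member nearest to a call over all 27 pools, in the positive direction (permutation p = 0.00639, adjusted p = 0.131), and its correlation is given only within its clusters. In the 18 pools above its gap it had rho = 0.23 with interferon tau (permutation p = 0.368, adjusted p = 0.776), and in the 9 below rho = 0.23 (exact permutation p = 0.552), both over a narrower range of TAP2.

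Count models with the log2 of interferon tau as covariate called 280 genes with edgeR (2.27%) and 520 with DESeq2 (4.22%), and again 0 of the 8 members with either. TAP2 had the steepest slope of the 8, 0.21 log2 units per doubling of interferon tau (adjusted p = 0.203 with edgeR and 0.141 with DESeq2). The slope was 0.10 for BOLA (edgeR adjusted p = 0.481) and -0.15 for B2M (edgeR adjusted p = 0.32). Of 21 listed interferon-stimulated genes, 18 were in the table and 11 were retained. Of the 11, 10 had a positive rho with interferon tau, and 1 was called by ranks, against 1.54% of all genes tested. This was IRF7, the interferon regulatory factor 7 gene, at the threshold (rho = 0.62, adjusted p = 0.0499). It was not called without pool 9 (adjusted p = 0.0849), without pools 9 and 14 (adjusted p = 0.122) or by the Pearson test (adjusted p = 0.0688). MX1 was not called by ranks (rho = 0.60, adjusted p = 0.0671). The Pearson test, which called 245 of 12309 genes, called MX1 (r = 0.70, adjusted p = 0.0117). Against BOLA, IFIT3 was the listed interferon-stimulated gene called (rho = 0.75, adjusted p = 0.00397), and it had an adjusted p of 0.0698 without pools 9 and 25 and 0.162 in the 23 pools without the 4 lowest in BOLA.

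Depth was checked in the same way. No gene was called against the total count of the pool, by either test, and 418 genes had p ≤ 0.05 by ranks before adjustment. BOLA had rho = -0.46 with the total count (permutation p = 0.0164, adjusted p = 1) and r = -0.43 (permutation p = 0.0232, adjusted p = 0.997), and it was the only member with p ≤ 0.05 before adjustment. Of the 6 retained leukocyte markers, 1 had a positive rho with the total count (median -0.27), and 1 had p ≤ 0.05 before adjustment. Of the 6 retained class II genes, 0 had a positive rho (median -0.26). The median over all genes tested was 0.01. The part of depth in the BOLA values, and in their relation to leukocyte and class II genes, was not tested.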

How the data were processed

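The authors prepared cDNA from pools of 2 blastocysts with a SMART-Seq v4 3′ kit, trimmed the first reads with fastp, mapped them with STAR to ARS-UCD2.0 and deposited raw counts per gene from featureCounts, neither normalized nor filtered. Versions, annotation release and strand setting are not given in the sources used here. All 27 count columns were used.

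Counts were divided by the total of their pool to give CPM, and a gene was kept at 1 CPM or more in at least 12 pools, the filter of the study. Gene positions and identifiers are those of RefSeq on ARS-UCD2.0, in which all 8 members were matched by symbol. Spearman correlations and Pearson correlations of log2(CPM + 1) were tested two-sided with 100000 permutations of the pools and Benjamini-Hochberg adjustment over all retained genes, separately for each of 11 measures. The smallest permutation p is 1e-05. The interferon tau relation was also fitted with the edgeR 4.0.16 quasi-likelihood test and the DESeq2 1.42.0 Wald test. Correlations were calculated with Python 3.11.15 and numpy 2.4.6, and the scripts were tested on simulated data.

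Treatment and replicate of a pool were not assigned, so relations could not be recomputed within treatments or fertilization replicates. The part of either in any relation was not tested. Among the genes called with BOLA, the paper lists LYZ, JCHAIN, BLA-DQB and LOC508666, a chemokine gene, as more abundant after fluid of lesser maturity. The p-values treat the pools as independent of each other. The paper took its blastocysts from 4 fertilization replicates under greater and lesser maturity fluid, so pools that share these may not be independent. Counts are reads and not molecules, and 3 counts stood for 0.0678 to 0.285 CPM, for counting error only. The members and gene lists were chosen with earlier results of these data known. Named are the members, the 3 genes with the highest rho to each member, and listed genes needed to describe a list (those called and those highest or lowest in CPM), and other genes are said to be named after their values were seen or stand beside these as examples. Alternatives covered library size (TMM, DESeq2 size factors), kind of correlation, pseudocount, filter, and pools left out. Those with 2000000 permutations, without pool 9, without the 4 pools that stood apart in BOLA or B2M, within the TAP2 clusters, and the relation to leukocyte markers were chosen after seeing the data.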

Additional observations from a re-analysis of the deposited data

How the results depend on the processing

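Over all alternatives, 177 repeats were counted as the same, counts moved in 22, a relation lost its call in 9 and gained it in 1. The 177 include members' median CPM and numbers of called genes that stayed at 0, so they are not all relations that held. The number of genes called against BOLA, 88, was 183 with all genes with a count, 45 without pools 9 and 25 and 0 without the 4 pools lowest in BOLA, and it was 62 to 111 under the other settings. The number of member relations called, 1, was 0 when the 2 pools with the most extreme values of each gene were left out. Of the members, 1 was called against the leukocyte markers by ranks and 2 by the Pearson test, with either pseudocount. The pooled number of genes called against TAP2, 74, moved to between 0 and 237. The members' median CPM moved by less than the spread between pools under 3 other library sizes. Permutation limits the smallest adjusted p to 0.123 for a single gene, and NLRC5 and BOLA-NC1 rest on few counts. No paired analysis was possible because the labels place no pool in a group or replicate.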

Other observations

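TAP2 formed clusters that the labels do not name. The 9 pools below the gap had 2.96 (pool 25), 2.98 (pool 32), 3.05 (pool 15), 4.17 (pool 45), 4.23 (pool 1), 4.43 (pool 24), 4.66 (pool 6), 4.7 (pool 36) and 5.31 CPM (pool 31), on 34 to 163 counts. The 18 pools above it had 8.21 (pool 44), 9.58 (pool 23), 9.68 (pool 42), 10.1 (pool 26), 10.2 (pools 5 and 28), 10.4 (pool 46), 10.5 (pool 12), 10.7 (pool 41), 11.1 (pool 38), 11.3 (pools 9 and 21), 11.6 (pool 22), 11.8 (pool 35), 12.5 (pools 14 and 19), 16.9 (pool 33) and 17.9 CPM (pool 13). A gap as wide on the log2(CPM + 1) scale, with at least 6 pools on each side, occurred in 0.95% of retained genes, and a gap that took as large a part of the gene's range (24.2% for TAP2) in 0.325%. Where a gap had to leave only 4 pools on each side, the widest was 0.54 for TAP2, 0.54 for B2M and 0.61 for BOLA.

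Other transcripts differed in range between the clusters. The 5 Y-linked genes DDX3Y, EIF1AY, USP9Y, ZFY and ZRSR2Y, which only male embryos carry, summed to 47.8 to 118 CPM in the 9 pools low in TAP2. Of the 18 others, 9 had at most 1.65 CPM and 9 had 18.9 to 197 CPM. Interferon tau was 7.09 to 87.8 CPM with a median of 22.1 in the 9 pools and 8.37 to 589 CPM with a median of 81.2 in the 18. The clusters were defined from the values, so these differences carry no test.

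The 4 pools lowest in BOLA were 31 (17.5 CPM), 26 (17.6), 14 (18) and 46 (18.2). Their summed leukocyte markers were 10.3, 22.1, 35.9 and 20.1 CPM in that order, against a median of 35.9 CPM over all pools. Their BOLA-NC1 was 1.63, 1.65, 1.15 and 1.92 CPM. The 4 pools highest in B2M were 36 (1779 CPM), 44 (1515), 22 (1316) and 35 (1310).

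Rows of the table without a class I symbol lie beside the class I genes on chromosome 23. LOC785873 was measured at 11 to 29.6 CPM with a median of 17.9, and LOC512672 at 0.391 to 6.77 CPM with a median of 2.16. Whether these rows hold class I genes was not examined.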
